A study of Mus musculus with 6 samples.

Results

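A set of 40 genes that mark or equip astrocytes was followed in the cerebral cortex of adult mice, out of 32531 gene symbols counted. They were taken from a list of symbols, all 40 were found in the counts, and all 40 passed the filter on low counts, so no member was dropped before testing. The study used untreated mice of the line Htr4-EGFP/Rpl10a (ES1299), in which the ribosomal protein Rpl10a carries an EGFP tag under control of Htr4, a serotonin receptor gene. IP libraries (3) hold RNA bound to tagged ribosomes pulled from homogenised cortex with antibodies against EGFP. Input libraries (3) hold cortex RNA of the same line and are what the IP is set against, so every library came from mice with the tag, and the tag reaches the cells in which the transgene is active. The labels give no number, sex or pooling of animals and do not say whether replicates came from separate animals, so p-values measure the spread between these libraries, which may be technical.

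Astrocytes are the glial cells that clear glutamate and potassium from around synapses, move water at their endfeet on blood vessels, and couple to each other through gap junctions. They also store glycogen, buffer metals and release lipoproteins and other proteins used by neurons.

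Reads on genes numbered 53147173 to 67559533 in IP and 37696125 to 52360452 in input libraries, so 3 reads correspond to 0.0444 to 0.0796 CPM (reads per 1000000 reads on genes). Reads matching several places made up 34.4% ± 1.43 of listed reads in IP and 22.4% ± 1.21 in input, and reads matching several genes 1.82% ± 0.0772 in IP and 8.99% ± 0.856 in input (SD, n = 3 each). These shares moved with the groups, as did the library index, and their part in the results below was not tested. Htr4 itself had 20.5 ± 2.45 CPM in IP and 7.63 ± 0.331 CPM in input (SD, n = 3 each; log2 fold change 1.34, SE 0.16, edgeR adjusted p = 5.7e-05). The summed level of 15 pan-neuronal markers was 39823 to 42630 CPM in IP and 25691 to 27520 CPM in input, and 12 of the 15 were called higher in IP and 1, Map2, lower.

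Most of the 40 astrocyte genes were lower in IP than in input. In edgeR's quasi-likelihood test over 16506 genes, 36 were called lower and 0 higher at a Benjamini-Hochberg adjusted p under 0.05, and 4 did not pass. Of all tested genes, 23.4% were called lower and 21.3% higher, 44.8% in all. The number of members higher in IP was also 0 at an unadjusted p under 0.05, with DESeq2 and with limma-voom. Of all calls, 47.7% were higher in IP, and 11.1% when libraries were scaled to the pan-neuronal genes, which moved the median of all genes by -0.48 and gave 39 members called lower. Every IP library lay below every input library for 36 of the 40, against 26.5% of all tested genes, and IP lay above input throughout for 0 of the 40, against 31% of all tested genes. The median log2 fold change, IP over input, was -2.72 over the 40 members and -0.02 over all tested genes. Together the 40 genes took 0.206% ± 0.0171 of gene reads in IP and 0.675% ± 0.0191 in input (SD, n = 3 each). Both kinds of library pool RNA of many cells. Fewer tagged cells of a type and less ribosome-bound RNA per tagged cell would both lower a level in IP, and they cannot be told apart.

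The size of the fall ran over a wide range. The level kept in IP, meaning the mean CPM in IP as a percent of the mean CPM in input, had a median of 16.2% over the 40 genes and 106% over all tested genes. It was under 10% for 10 members, 10 to 20% for 13, 20 to 50% for 9, 50 to 90% for 6 and 90% or more for 2. Of all tested genes, 6.71% kept under 10% and 60.7% kept 90% or more. Within lanes 1, 2 and 3, each holding 1 IP and 1 input library, the median kept was 19.4%, 15.1% and 18.0%. All 3 lanes gave a lower level in IP for 37 members, and Mt3 was the only member higher in IP in all 3 lanes. Among all tested genes, at least 26.5% were lower and at least 31% higher in all 3 lanes, as their groups did not overlap.

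**Figure D1:**
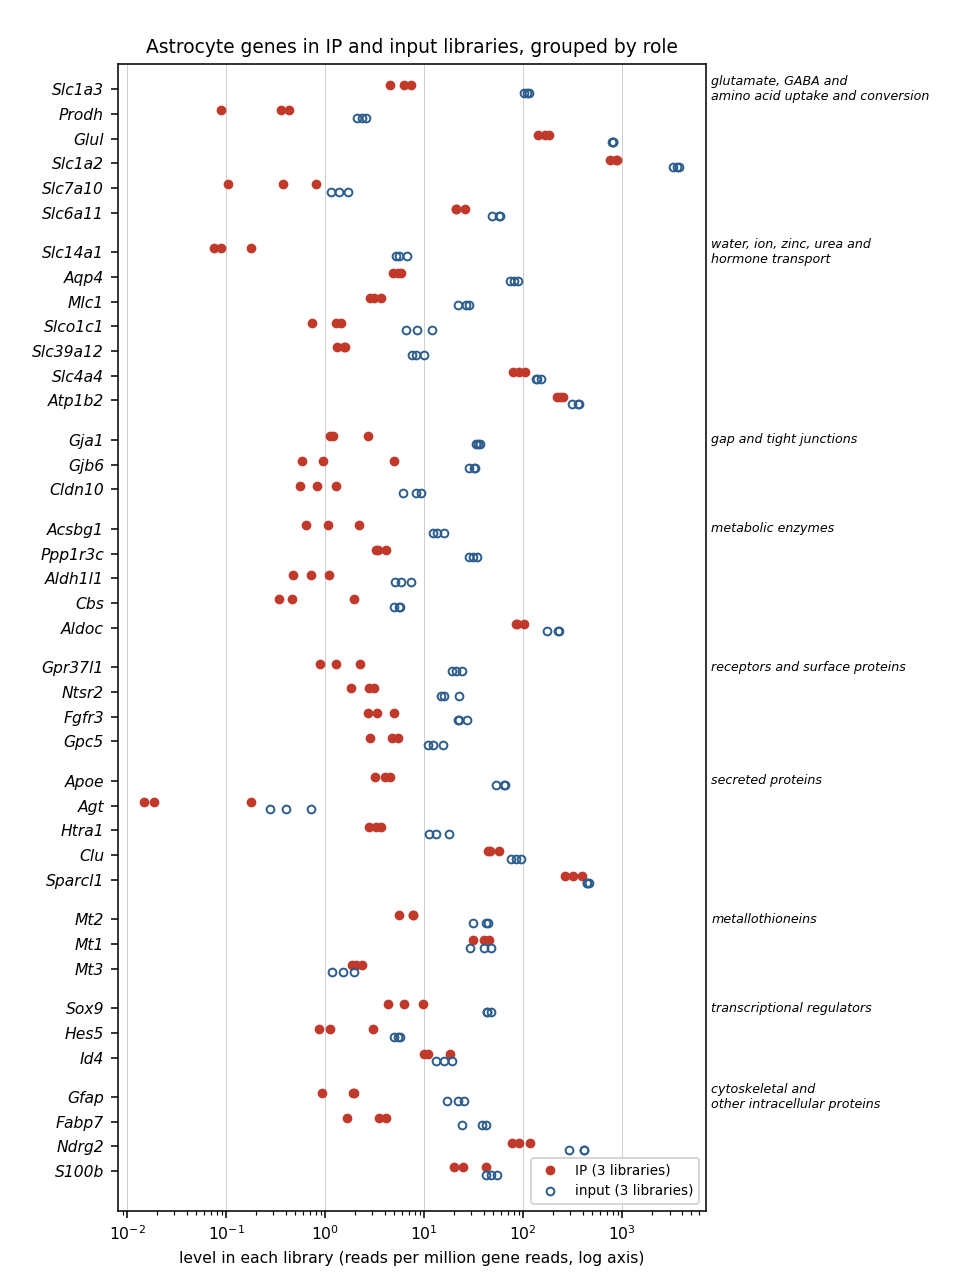
Level of each of the 40 astrocyte genes in the 3 IP libraries (filled points) and the 3 input libraries (open points), in CPM on a log axis, grouped by role. The groups do not overlap for 36 genes, and they overlap for S100b, Id4, Mt1 and Mt3.

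Genes of glutamate, GABA and amino acid handling fell, with 5 of 6 called. Slc1a2, the main glutamate transporter of forebrain astrocytes (GLT-1), was the member with the most reads. The gene lies on chromosome 2 at 102658659 to 102790784 (GRCm38, plus strand). It had 746, 857 and 893 CPM in the IP libraries and 3267, 3582 and 3729 CPM in the input libraries. The groups were far apart, and the level kept was 22.8%, 23.9% and 23.9% within the 3 lanes (log2 fold change -2.18, SE 0.10, adjusted p = 3.3e-08). Slc1a3, the second astrocytic glutamate transporter (GLAST), had 6.23, 4.56 and 7.32 CPM in IP, against 103, 115 and 109 CPM in input. It kept 5.53%, a smaller part than Slc1a2 (log2 fold change -4.27, SE 0.17, adjusted p = 9.2e-09). Glul, glutamine synthetase, which turns glutamate taken up into glutamine, had 182, 141 and 165 CPM in IP and 814, 798 and 792 CPM in input (log2 fold change -2.39, SE 0.10, adjusted p = 1.3e-08). Slc6a11, the GABA transporter GAT-3, kept 41.2%, with 22.4 ± 2.78 CPM in IP and 54.3 ± 4.80 CPM in input (adjusted p = 9.8e-06).

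The ratio of Slc1a2 to Slc1a3 reads within a library does not depend on how libraries are scaled. It was 120, 188 and 122 in IP, against 31.8, 31.0 and 34.1 in input, 4.34 times higher in IP as a geometric mean. The groups did not overlap. An exact two-sided permutation test gave p = 0.1, and no smaller value can be reached with 3 libraries per group (0.133 adjusted over the 4 gene pairs compared). The 4 pairs were chosen with earlier results of these data known, so their p-values are no independent support.

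The remaining genes of this role were scarce. Prodh, proline dehydrogenase, had 0.292 ± 0.180 CPM in IP and 2.33 ± 0.232 CPM in input (adjusted p = 0.0017). Slc7a10, a transporter of small neutral amino acids such as D-serine, had 20, 7 and 54 reads in IP, against 43, 85 and 73 reads in input. Its levels of 0.376, 0.104 and 0.805 CPM in IP all lay below the lowest input value of 1.14 CPM, yet it did not pass (log2 fold change -1.80, SE 0.73, adjusted p = 0.064). It passed in 5 of 14 alternatives, with a log2 fold change of -2.66 and an adjusted p of 0.014 without IP replicate 3. In the GENCODE M21 annotation, 17.9% of its exon bases overlap exons of Lrp3 on the opposite strand. Lrp3 has its own counts, and how reads in the shared bases were assigned is not known because no strand setting is stated. For the same reason, reads of overlapping partners without a symbol in the counts cannot be told apart.

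All 7 genes of water, ion, zinc, urea and hormone transport fell. Slc14a1, the urea transporter UT-B, fell most of all 40 members. It had 4, 6 and 12 reads in IP, or 0.0753, 0.0888 and 0.179 CPM, against 195, 281 and 347 reads in input, or 5.17, 5.57 and 6.63 CPM. That is 50.7 times lower in IP, with IP values close to the level of 3 reads (log2 fold change -5.71, SE 0.45, adjusted p = 2.6e-06). Aqp4, the water channel of astrocyte endfeet, had 5.83, 5.45 and 4.79 CPM in IP and 87.9, 73.1 and 81.4 CPM in input. All IP libraries kept between 5.88% and 7.45% of their lane's input (log2 fold change -4.01, SE 0.14, adjusted p = 3.2e-09). Mlc1, an endfoot membrane protein, kept 12.5%, Slco1c1, a thyroid hormone transporter found also in brain endothelium, 12.7%, and Slc39a12, a zinc importer, 17.3%.

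Slc4a4 and Atp1b2 of this role stayed much closer to input. Slc4a4, the sodium bicarbonate cotransporter NBCe1, had 91.2, 104 and 79.4 CPM in IP, against 135, 151 and 138 CPM in input. It kept 64.6% (log2 fold change -0.72, SE 0.11, adjusted p = 0.00022). Atp1b2, a beta subunit of the sodium-potassium pump, had 218, 238 and 253 CPM in IP, against 307, 355 and 363 CPM in input, and kept 69.1% (log2 fold change -0.63, SE 0.10, adjusted p = 0.00043). For both, the groups did not overlap and the fall was smaller than for the other 5 genes of the role.

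The 3 junction genes were among the most depleted. Gja1, connexin 43, the main astrocyte gap junction protein, had 2.69, 1.11 and 1.21 CPM in IP, against 35.1, 37.0 and 33.2 CPM in input. It kept 4.76% (log2 fold change -4.51, SE 0.29, adjusted p = 5.9e-07). Gjb6, connexin 30, had 50, 333 and 39 reads in IP, against 1211, 1633 and 1469 reads in input. IP replicate 2 stood apart at 4.93 CPM, with 0.941 and 0.581 CPM in IP replicates 1 and 3, and still lay below the lowest input value of 28.1 CPM (log2 fold change -3.92, SE 0.58, adjusted p = 0.00025). Without that library the log2 fold change was -5.44. The ratio of Gja1 to Gjb6 reads was 2.86, 0.225 and 2.08 in IP, against 1.09, 1.14 and 1.18 in input, and the groups overlapped in order (two-sided exact permutation p = 1). Cldn10, a claudin of tight junctions, kept 11.3%, with 0.893 ± 0.377 CPM in IP and 7.89 ± 1.61 CPM in input.

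Enzymes of astrocyte metabolism fell, all 5 of them called. Aldh1l1, the folate enzyme widely used as a pan-astrocyte marker, had 0.715, 0.474 and 1.10 CPM in IP, against 5.89, 7.32 and 5.08 CPM in input (log2 fold change -3.08, SE 0.38, adjusted p = 6.4e-05). Acsbg1, an acyl-CoA synthetase, had 1.07, 0.636 and 2.21 CPM in IP, against 13.6, 16.0 and 12.3 CPM in input, and kept 9.36%. Its log2 fold change was -3.50, and -4.14 without IP replicate 3, the highest IP library. Ppp1r3c, a glycogen-targeting subunit of protein phosphatase 1, kept 11.5%. Cbs, cystathionine beta-synthase, had 1.96, 0.459 and 0.343 CPM in IP, against 5.65, 4.997 and 5.54 CPM in input, with IP replicate 1 above the other IP libraries. Its log2 fold change was -2.67, and -3.82 without that library. Aldoc, the brain form of aldolase, was the exception in size: it had 87.0, 83.9 and 103 CPM in IP, against 229, 225 and 176 CPM in input, and kept 43.5% (log2 fold change -1.29, SE 0.12, adjusted p = 6.7e-06).

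All 4 receptors and surface proteins fell. Gpr37l1, an orphan receptor of glia, had 0.884, 1.29 and 2.22 CPM in IP, against 20.9, 24.1 and 18.9 CPM in input (log2 fold change -3.94, SE 0.30, adjusted p = 2.0e-06). Ntsr2, a neurotensin receptor, kept 14.4% and Fgfr3, a fibroblast growth factor receptor, kept 15.4%. Gpc5, a glypican, fell least of the 4 and kept 33.6%, with 4.34 ± 1.34 CPM in IP and 12.9 ± 2.41 CPM in input (adjusted p = 0.0003).

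The 5 genes of secreted proteins were all called lower but by very unequal amounts. Apoe, the main apolipoprotein of astrocytes, made also by microglia, had 4.48, 3.98 and 3.18 CPM in IP, against 65.1, 64.0 and 53.0 CPM in input (log2 fold change -4.06, SE 0.16, adjusted p = 7.9e-09). Clu, clusterin, another lipoprotein component, had 46.5, 44.3 and 57.4 CPM in IP, against 85.0, 93.8 and 75.9 CPM in input. The levels kept were 6.39% for Apoe and 58.2% for Clu. Sparcl1, the synapse-promoting matrix protein hevin, had 263, 317 and 394 CPM in IP, against 439, 438 and 457 CPM in input. It kept 72.9%, the most of any member called lower (log2 fold change -0.55, SE 0.13, adjusted p = 0.0056). Htra1, a secreted serine protease, kept 23.0%.

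Agt, angiotensinogen, was hardly detected. It had 1, 12 and 1 reads in IP, against 15, 14 and 38 reads in input, and 2 of the IP values lay under the 3-read level. The call was marginal (log2 fold change -2.77, SE 1.04, adjusted p = 0.047). It was lost in 9 of 13 alternatives, among them the fit with the replicate number as a block (adjusted p = 0.080) and the fits without IP replicate 1 (0.12), IP replicate 3 (0.12), or input replicate 1 (0.099), 2 (0.081) or 3 (0.20). Over all 13 its adjusted p ran from 0.0099 to 0.20. The log2 fold change was -3.27 with the block and ran from -3.06 to -2.25 in the 5 fits just named that leave out a library. Without IP replicate 2, which holds 12 of its 14 IP reads, it was -4.72 and the call held (adjusted p = 0.0099).

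**Figure D2:**
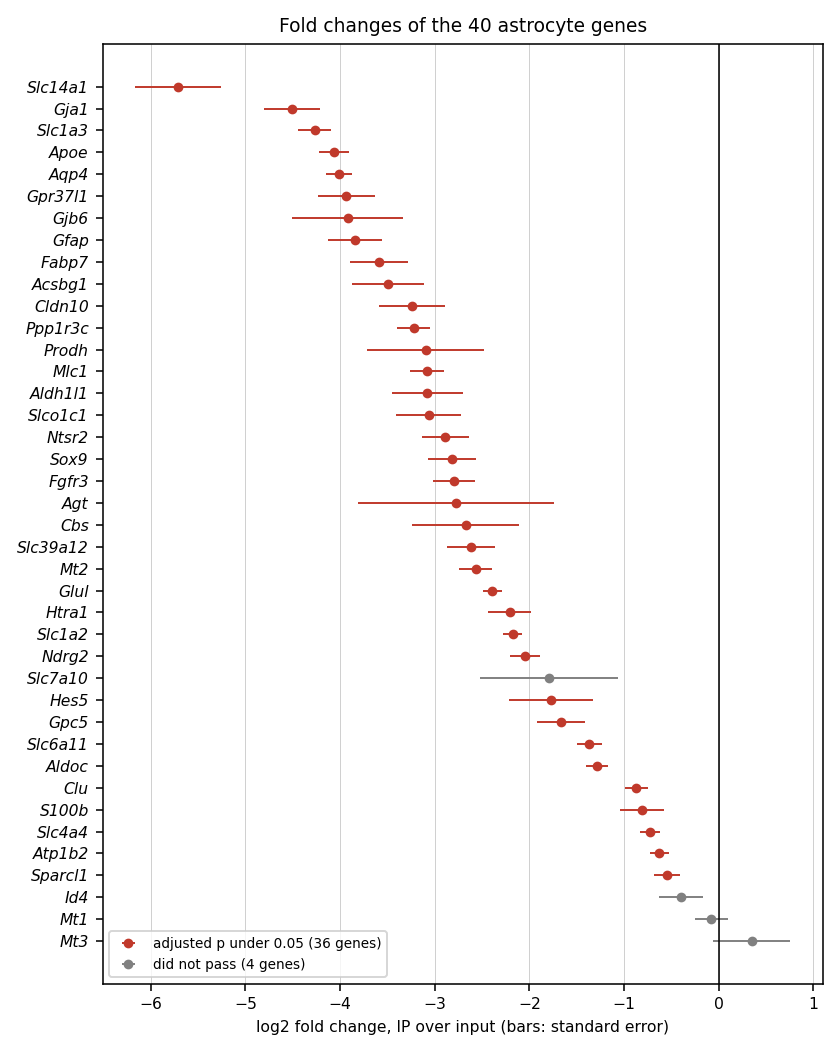
Log2 fold change, IP over input, of the 40 genes with standard errors from edgeR (3 IP and 3 input libraries), sorted from the most to the least depleted. Slc14a1 lies lowest at -5.71, Mt3 highest at 0.35, and the 4 grey genes Slc7a10, Id4, Mt1 and Mt3 did not pass.

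The 3 metallothioneins, small cysteine-rich proteins that bind zinc and copper, went apart from each other. Mt2 had 7.70, 7.70 and 5.55 CPM in IP, against 43.6, 42.0 and 30.9 CPM in input, and kept 17.6%, 18.3% and 17.9% within the lanes (log2 fold change -2.57, SE 0.18, adjusted p = 9.1e-07). Mt1 had 45.6, 39.8 and 31.4 CPM in IP, against 47.0, 40.1 and 28.7 CPM in input. Its groups overlapped, each IP library lay near the input of its own lane, and it did not pass (log2 fold change -0.08, SE 0.17, adjusted p = 0.74). The sign of its fold change turned positive with total counts (0.013), without IP replicate 3 (0.05) and without input replicate 1 (0.10), and with scaling to the pan-neuronal genes it was called lower (log2 fold change -0.56, adjusted p = 0.018). Mt3, the brain metallothionein, which neurons also make, had 125, 138 and 126 reads in IP, against 57, 99 and 61 reads in input. Its levels of 2.35, 2.04 and 1.88 CPM in IP and 1.51, 1.96 and 1.17 CPM in input overlapped (log2 fold change 0.35, SE 0.41, adjusted p = 0.53), and the sign was negative with scaling to the pan-neuronal genes (-0.14).

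Within a library, Mt1 had 5.92, 5.17 and 5.66 reads per Mt2 read in IP, against 1.08, 0.953 and 0.930 in input. Mt3 had 0.306, 0.265 and 0.339 reads per Mt2 read in IP, against 0.0347, 0.0467 and 0.0377 in input. Both ratios were higher in every IP library than in every input library, by 5.66 and 7.66 times, and no scaling of libraries enters them (two-sided exact permutation p = 0.1 for each, the smallest possible, and 0.133 adjusted over the 4 pairs). These pairs too were chosen with earlier results of these data known, so the p-values are no independent support. In GENCODE M21, 73.5% of the exon bases of Mt2 overlap an antisense gene, Gm45774, for which the counts hold no symbol.

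**Figure D3:**
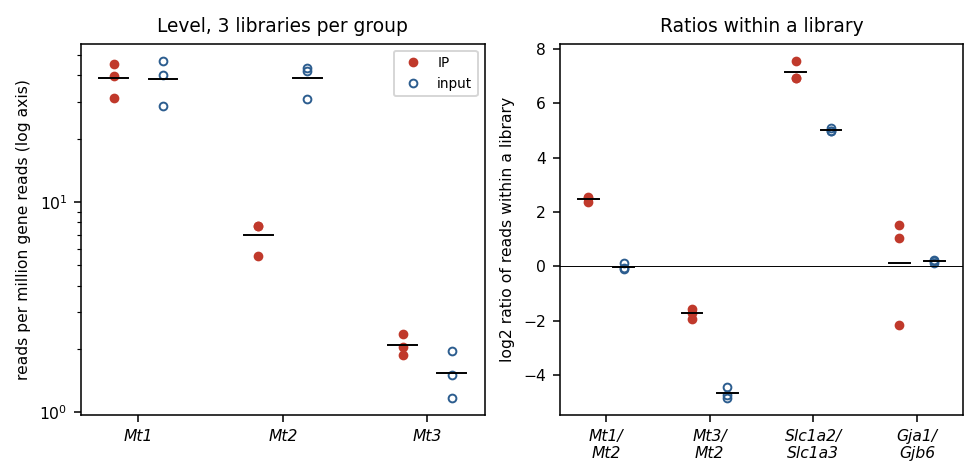
Left, levels of Mt1, Mt2 and Mt3 in CPM on a log axis in 3 IP (filled) and 3 input (open) libraries, with the mean as a line. Right, log2 ratios of reads within a library for 4 gene pairs. The ratios of Mt1 and Mt3 to Mt2, and of Slc1a2 to Slc1a3, lie higher in all IP than in all input libraries, while the ratio of Gja1 to Gjb6 is scattered in IP.

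In GENCODE M21 the metallothionein genes lie side by side on chromosome 8 (GRCm38, plus strand), Mt3 at 94152607 to 94154146, Mt2 at 94172664 to 94173568 and Mt1 at 94179082 to 94180327, within 27721 bases. Mt1 and Mt2 are known for induction by metals. The promoters of these neighbouring genes are shown, and whether their letters bear on the level kept in IP was not tested. Capitals mark matches on either strand to TGCACNC or TGCGCNC, the core letters of the metal response element, in the 250 bases before the start that RefSeq lists (GRCm38.p6, printed 5′ to 3′).
Mt1: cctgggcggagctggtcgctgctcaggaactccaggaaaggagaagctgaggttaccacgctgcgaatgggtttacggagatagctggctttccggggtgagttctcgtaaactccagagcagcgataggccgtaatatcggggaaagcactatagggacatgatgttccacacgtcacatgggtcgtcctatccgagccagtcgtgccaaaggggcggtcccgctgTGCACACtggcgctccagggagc
Mt2: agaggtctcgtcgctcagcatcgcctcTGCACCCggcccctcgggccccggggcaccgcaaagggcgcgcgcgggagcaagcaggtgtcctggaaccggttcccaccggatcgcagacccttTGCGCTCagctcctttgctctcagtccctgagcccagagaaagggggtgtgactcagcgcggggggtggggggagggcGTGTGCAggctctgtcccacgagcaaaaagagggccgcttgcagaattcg
Mt3: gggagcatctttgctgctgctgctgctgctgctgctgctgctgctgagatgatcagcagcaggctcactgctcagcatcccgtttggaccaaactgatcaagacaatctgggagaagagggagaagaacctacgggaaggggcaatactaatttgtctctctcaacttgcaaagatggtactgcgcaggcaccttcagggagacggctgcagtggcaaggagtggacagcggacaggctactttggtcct
The windows are chr8:94178839-94179088 for Mt1, chr8:94172368-94172617 for Mt2 and chr8:94152357-94152606 for Mt3. In these windows Mt1 held 1 match, Mt2 held 3 and Mt3 held 0. For these genes, bases after the listed start were not searched. The counts hold for these starts only, so they do not show that Mt1 has fewer such elements than Mt2. Of all 32851 promoter windows of this length, 21.4% held at least 1 match and 1.26% at least 3. Of the 34 members matched by symbol to a promoter, 7 held at least 1. A match describes letters only.

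Of the 3 transcriptional regulators, 2 fell. Sox9, which specifies and maintains astrocytes, had 6.21, 4.26 and 9.76 CPM in IP, against 42.9, 43.5 and 47.7 CPM in input (log2 fold change -2.82, SE 0.25, adjusted p = 6.7e-06). Hes5, a Notch effector, had 1.11, 0.873 and 3.01 CPM in IP, against 5.70, 5.45 and 4.98 CPM in input, with IP replicate 3 well above the other IP libraries (log2 fold change -1.77, SE 0.44, adjusted p = 0.0064). Without that library the log2 fold change was -2.54. Id4, an inhibitor of basic helix-loop-helix factors, had 18.2, 9.84 and 10.8 CPM in IP, against 19.2, 15.9 and 13.0 CPM in input. Its groups overlapped through IP replicate 1 and it did not pass (log2 fold change -0.40, SE 0.23, adjusted p = 0.18). Without IP replicate 1 it was called lower (log2 fold change -0.70, adjusted p = 0.014).

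The remaining 4 genes were called lower. Gfap, the intermediate filament of astrocytes, had 1.92, 0.933 and 1.94 CPM in IP, against 22.1, 25.5 and 16.9 CPM in input, and kept 7.43%. Fabp7, a brain fatty acid binding protein, kept 8.88%. Ndrg2, an abundant cytoplasmic protein of astrocytes, had 91.0, 77.4 and 118 CPM in IP, against 413, 412 and 291 CPM in input, and kept 25.7%. S100b, a calcium-binding protein made also by oligodendrocytes, had 20.2, 24.7 and 42.3 CPM in IP, against 47.4, 54.9 and 42.1 CPM in input. IP replicate 3 lay just above the lowest input value, and the call (log2 fold change -0.81, SE 0.23, adjusted p = 0.013) was lost without input replicate 2 (adjusted p = 0.055).

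Levels of different genes can be compared per length. With CPM divided by the annotated exon length in kilobases, the highest members in IP were Sparcl1 (110.5), Slc1a2 (63.3), Atp1b2 (57.8), Glul (49.0) and Mt1 (31.2, with an intron counted into its length). In input they were Slc1a2 (268), Glul (241), Sparcl1 (151), Ndrg2 (109) and Atp1b2 (83.7). Spearman's rho between the IP and input levels per kilobase was 0.88 over the 40 genes, which share the same 6 libraries. A mean of at least 1 CPM was reached by 33 members in IP and by 39 in input, and of at least 10 CPM by 12 in IP and 29 in input.

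The median coefficient of variation over the 40 genes was 28.5% in IP and 13.2% in input, and it was higher in IP for 32 genes. Over all tested genes the median was 17.1% in IP and 13.7% in input, and it was higher in IP for 63.3% of the 16345 with reads in both groups. The members also had fewer reads in IP than in input for the most part, and the part of read number in this spread was not tested. The highest of the 3 IP values fell in replicate 3 for 19 genes, among them Ndrg2, S100b, Hes5 and Sox9, in replicate 1 for 16 and in replicate 2 for 5.

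A list of 30 other astrocyte genes had 27 called lower and 0 higher, against 23.4% and 21.3% of all tested genes, and a median log2 fold change of -3.16. Lcat, which esterifies cholesterol on lipoproteins, had 10, 20 and 1 reads in IP, against 330, 512 and 500 reads in input. Paqr6, a membrane progestin receptor, had 0 reads in all IP libraries and 44 in all input libraries, at least 19.6 times lower in IP when 3 reads are taken as the floor of the whole group. Kcnj10, the potassium channel Kir4.1 and the most abundant of the list by input CPM, had 11.5 ± 3.64 CPM in IP and 95.9 ± 12.2 CPM in input (adjusted p = 5.5e-07). The members not called were Cyp4f14 (adjusted p = 0.12), Btbd17 (adjusted p = 0.82) and Ttyh1 (adjusted p = 0.54), a membrane protein abundant in glia with 28.8 ± 2.42 CPM in IP and 29.1 ± 2.82 CPM in input.

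Marker lists of other cells did not all move alike in the same contrast. Called lower in IP were 15 of 15 oligodendrocyte genes, 8 of 8 oligodendrocyte precursor genes, 14 of 14 microglial genes, 7 of 10 tested endothelial genes and 5 of 9 tested mural and fibroblast genes. The share over all tested genes was 23.4%. Of 4 tested ependymal genes (Foxj1, Rsph1, Ccdc153 and Tekt1), 0 were called in either direction and the groups overlapped for all 4. Of all tested genes, 44.8% were called in either direction. Every IP library lay below every input library for 26.5% of all tested genes and above for 31%. The level kept in IP had a median of 8.73% over the oligodendrocyte, 9.32% over the oligodendrocyte precursor, 9.84% over the endothelial, 18.9% over the mural and fibroblast, 129% over the ependymal and 149% over the 15 pan-neuronal genes, beside 16.2% over the 40 astrocyte genes. The summed level of the 15 oligodendrocyte genes was 223 to 256 CPM in IP and 1636 to 1736 CPM in input, and that of the 14 microglial genes 6.54 to 10.9 CPM in IP and 82.6 to 90.03 CPM in input. The summed level of the endothelial list was 8.16 to 11.1 CPM in IP and 13.6 to 20.2 CPM in input. Most of this IP sum came from Egfl7, with 6.89, 4.75 and 6.89 CPM, and Esam, with 2.92, 2.28 and 2.76 CPM. In input Egfl7 had 4.70, 4.24 and 2.48 CPM and Esam 2.44, 2.78 and 2.18 CPM. Neither was called, so the endothelial sum does not show the fall of the 7 genes called lower. Sums overlapped for the mural and fibroblast list, with 21.6 to 44.2 CPM in IP and 36.6 to 48.1 CPM in input, and for the ependymal list, with 5.73 to 8.56 CPM in IP and 5.85 to 7.06 CPM in input. Highest of the mural and fibroblast list in IP were Dcn, with 27.2, 10.6 and 3.21 CPM, and Rgs5, with 13.3 ± 2.49 CPM. In input Dcn had 8.87 ± 2.51 CPM and Rgs5 18.3 ± 4.07 CPM. For 11 members, expression in microglia, oligodendrocyte lineage cells, vessels or neurons was also taken as known (Apoe, Glul, S100b, Slco1c1, Sparcl1, Clu, Mt1, Mt2, Mt3, Fabp7 and Gpr37l1). Of these 11, 9 were called lower, with a median kept of 20.3%. Of the 29 not so taken, 27 were called lower, with a median kept of 15.1%. The split does not show that the 29 are absent from those cells. Whether the astrocyte reads left in IP came from tagged cells or from untagged RNA carried over was not tested.

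**Figure D4:**
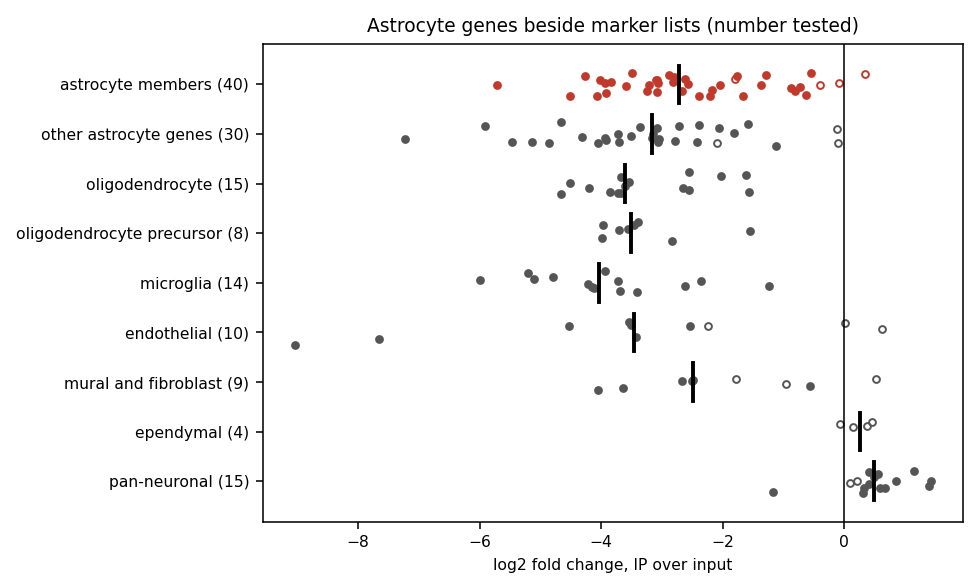
Log2 fold change, IP over input, of the tested genes of each list, with the median as a bar (filled: adjusted p under 0.05, open: did not pass). The astrocyte members reach from -5.71 to 0.35 around a median of -2.72, and the pan-neuronal genes centre on 0.48.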

How the data were processed

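The authors deposited raw read counts per gene symbol, 1 table per library, not normalized. STAR 2.0.0e, HTSeq and the build mm10 were used, per the submitters' processing notes. For HTSeq, no version, strand setting or annotation is given in the sources used here. HTSeq's summary rows and a row named unknown (at most 2 reads) entered neither library sizes nor tests. Of listed reads, 8.78% ± 0.162 in IP and 17.2% ± 0.722 in input lay outside genes (SD, n = 3 each).

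Counts were tested with the quasi-likelihood test of edgeR 4.0.16 in R 4.3.3, two-sided, after filterByExpr and with TMM factors, and p-values were adjusted by Benjamini-Hochberg over 16506 genes. SE is the log2 fold change over the root of the F statistic. Printed CPM use reads on genes without TMM (factors 1.02 to 1.05 in IP and 0.933 to 0.998 in input). The scripts were tested on simulated data. Libraries of a group differed by a chi-square per degree of freedom of 22 to 65.2, so none was a copy. Lengths, positions and exon overlaps come from GENCODE M21. The level of 3 reads covers counting error only.

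Libraries with the same replicate number shared a lane, per the labels, and their deviations from the group means correlated at 0.0872, 0.0608 and 0.0431. Between IP and input libraries of unlike number the correlations ran from -0.0566 to 0.00144. All were small, and a fit with the replicate block was run as well. Library index and group coincide and cannot be told apart. The alternatives were DESeq2 1.42.0, limma-voom (limma 3.58.1), RLE scaling, total counts, scaling to the pan-neuronal genes, no filter, at least 1 CPM in 3 libraries, and leaving out each library. All 40 members could be named, and of other lists the called genes that moved most either way and the most abundant. Cyp4f14, Btbd17, Ttyh1, the 4 tested ependymal genes, Egfl7, Esam, Dcn and Rgs5 were named after their values were seen. Members, lists and gene pairs were chosen with earlier results of these data known.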

Additional observations from a re-analysis of the deposited data

How the results depend on the processing

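Of the 40 members, 34 kept their call and direction under all 14 alternatives. The exceptions are Agt, Id4, Mt1, Mt3, S100b and Slc7a10, and what changed is given beside their values, except that Id4 was also called lower with scaling to the pan-neuronal genes (adjusted p = 0.0077). The number called lower was 36, and it was 35 with the replicate block, 36 with DESeq2, 37 with limma-voom, 36 with RLE scaling, 35 with total counts, 35 with no filter, 36 with at least 1 CPM in 3 libraries (39 members tested) and 34 to 36 when 1 library was left out. With the block, Agt was the member whose call changed. Under every one of these, 0 members were called higher. With scaling to the pan-neuronal genes, 39 members were called lower and 0 higher, and the median log2 fold change of the 40 was -3.20. The median otherwise ran from -2.88 to -2.60, and from -2.73 to -2.60 when 1 library was left out. The log2 fold change of Mt1 was 0.013 with total counts and ran from -0.22 to 0.10 when 1 library was left out, and that of Mt3 was -0.14 with scaling to the pan-neuronal genes. With no filter the median of all 22418 genes tested shifted by -0.16. The list of other astrocyte genes had 26 to 28 genes called lower. The median level kept in IP was 15.1% with TMM-scaled and 14.9% with RLE-scaled CPM, and 15.9 to 17.7% when 1 lane was left out. Agt, Prodh and Slc7a10 rest on under 130 reads per library.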

Other observations

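Across the 40 astrocyte genes, Spearman's rho with the log2 fold change was -0.18 for annotated exon length, 0.17 for the GC content of the longest transcript and 0.24 for the input level per kilobase. The same values over 14469 tested genes with an annotation match were -0.24, 0.14 and 0.23. These are descriptions across genes that share 6 libraries.

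Exons of 9 of the 40 genes overlap those of another gene in GENCODE M21. Of these 9, 7 were called lower, with a median kept of 23.6%, and of the other 31, 29 were called lower, with a median kept of 14.4%. Of the partners, 4 are in the counts. Lrp3 (opposite Slc7a10) had 1511, 1952 and 2264 reads in IP and 951, 1343 and 1467 in input. Teddm2 (opposite Glul) had 97, 216 and 91 reads in IP and 80, 78 and 129 in input, and Mir8114 (on the strand of Glul) had 0, 0 and 1 reads in IP and 0 in each input library. A330033J07Rik (opposite Id4) had 50, 14 and 98 reads in IP and 8, 20 and 8 in input.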
